A study of Bos taurus with 8 samples.

Results

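The cytosolic ribosomal protein genes were examined in bovine blastocysts, in the inner cell mass (ICM) and in the trophectoderm (TE). Members were the gene symbols of the array annotation that start with RPL or RPS and a number, together with RPSA, RPLP0, RPLP1, RPLP2 and FAU. Names of RPS6 kinases, of paralogs such as RPL22L1 and of binding proteins were left out. The rule gave 64 genes out of 15229 genes with a symbol, 39 of the large and 25 of the small subunit. Applied to the RefSeq gene symbols, the same rule gave 78, of which 14 had no probe named for them on the array. These genes were covered by 111 probes out of 43794, and for each gene the probe of highest mean intensity stood for the gene. No filter on low values was needed, because all 64 members exceeded the negative control spots on 16 of 16 channels.

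The 4 ICM pools and the 4 TE pools were made from expanded blastocysts that had been flushed from superovulated Holstein cows at day 7.5 after insemination. The ICM had been isolated by microsurgery followed by immunosurgery, and the TE consisted of the fragments cut away, so each pool mixes the cells of several embryos. Both RNAs of a pool pair were amplified with T7 polymerase and hybridised together, once with ICM in Cy5 and once with ICM in Cy3, on 8 arrays in all. The sources used here do not say whether different cows contributed to different pools, and a p-value therefore covers the spread over these 4 pool pairs, which may be technical in part. Fewer cells of a type and less RNA per cell cannot be told apart in such pools.

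Each channel was assigned its tissue by the dye that the labels name, and by this assignment the direction is the reverse of the one the study gives. NANOG, a pluripotency factor of the epiblast, gave a log2 fold change averaging -3.50 (SE 0.21, n = 4 pool pairs, adjusted p = 0.00317 from limma) as RNA labelled ICM over RNA labelled TE. At an adjusted p of 0.01, 9 of 13 trophoblast markers were higher and 0 were lower, where 1.92% and 1.35% of all probes were. Their summed linear intensity was 162900 to 171800 in the 4 pools labelled ICM and 85150 to 97660 in the 4 labelled TE. Of 10 epiblast markers, 5 were lower and 0 higher at the same limit. Their sums were 18060 to 24410 in the pools labelled ICM and 53830 to 71550 in those labelled TE. The markers go against the labels, and tissues are therefore named here only as the labels give them. With the channels assigned as in the study, every sign would turn.

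Ribosomal proteins are the structural part of the cytosolic ribosome, in which a small subunit decodes the mRNA and a large subunit forms the peptide bond. Their mRNAs are among the most abundant of growing cells and carry a terminal oligopyrimidine (TOP) motif at the start, through which nutrient and growth signals set their translation. In the early mammalian embryo, ribosome production starts with activation of the embryonic genome and increases towards the blastocyst stage.

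Nearly all of the 64 measured ribosomal protein genes lay on one side of the comparison. The log2 fold change was negative, that is, lower in the RNA labelled ICM, for 63 of 64 members, against 45.4% of all probes, and its median over the members was -0.44, against 0.00556 over all probes. At an adjusted p of 0.01, 7 members (10.9%) were called lower, where 1.35% of all probes were, and 0 members were called higher, where 1.92% of all probes were. At an adjusted p of 0.05, 29 members (45.3%) were lower, where 5.19% of all probes were, and 0 were higher, where 5.57% were. In 42 members (65.6%) all 4 pools labelled ICM lay below all 4 pools labelled TE, against 6.88% of all probes. The sign was negative in all 4 pool pairs for 51 members, against 15.9% of all probes, and on 8 of 8 arrays for 33 members, against 8.89% of the probes measured on every array. Fitted as 8 arrays with the replicate number as a block, 30 members were lower, where 5.85% of all probes were, and with a dye term added 32 were, where 4.8% of all probes were. The block fit estimated a correlation of 0.0356 within a pair, so it counted dye swaps of one pool pair nearly as separate samples, and the fit with the dye term estimated 0.438. Without pool pair 2, 3 or 4 no probe of the whole array passed 0.01, and the median over the members was -0.45, -0.47 and -0.47. With median centring in place of loess, 0 members and 1 of all 43794 probes passed 0.01, and the median over the members was -0.38.

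**Figure D1:**
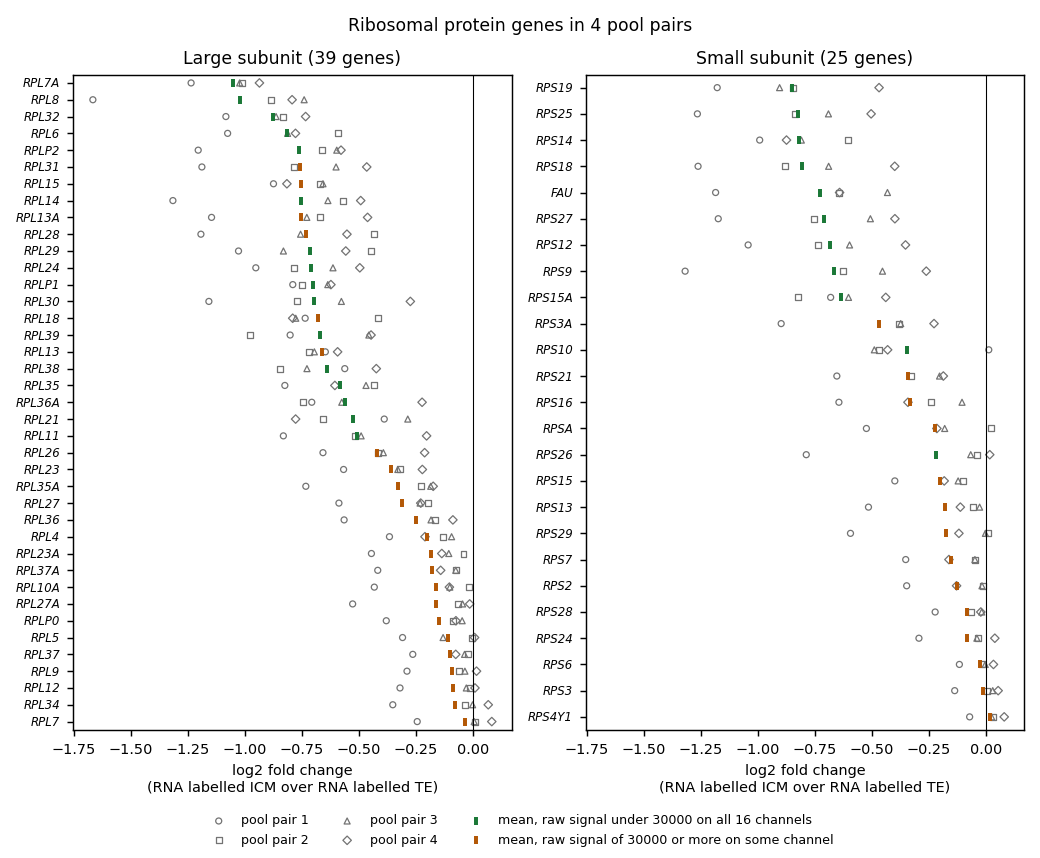
Log2 fold change (x axis, RNA labelled ICM over RNA labelled TE) of the 39 large subunit genes and the 25 small subunit genes (y axis), with 1 open symbol for each of the 4 pool pairs and a bar at the mean, green where the raw signal stayed under 30000 on all 16 channels and orange elsewhere. All means but that of RPS4Y1 lie left of 0, and the circles of pool pair 1 are the lowest symbols in 56 of 64 genes.

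Among the large subunit genes, 6 of 39 were called lower and the median log2 fold change was -0.56. RPL7A, which encodes a protein that binds the ribosomal RNA of the large subunit, had the lowest value of all members. Its normalized log2 intensity was 10.16, 10.52, 10.55 and 10.34 in the pools labelled ICM of pairs 1 to 4, against 11.39, 11.53, 11.58 and 11.28 in the pools labelled TE. The lowest TE-labelled pool stood above the highest ICM-labelled pool. The log2 fold change was -1.05 (SE 0.06, adjusted p = 0.00276), and RPL7A was the 1 member that also passed a 2-fold limit.

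RPL32, another structural protein of the large subunit, had levels of 10.07, 10.46, 10.75 and 10.79 in the pools labelled ICM, against 11.16, 11.29, 11.62 and 11.53 in those labelled TE. Its groups did not overlap either, and the pools of pair 1 were the lowest within both. The log2 fold change was -0.88 (SE 0.06, adjusted p = 0.00447).

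RPL6 is a large subunit protein that bacteria lack. It had levels of 13.61, 13.86, 13.85 and 13.94 in the pools labelled ICM and 14.69, 14.45, 14.67 and 14.72 in those labelled TE, with a log2 fold change averaging -0.82 (SE 0.08, adjusted p = 0.00931). The groups were separated by more than the whole range within either of them. RPL15, which is buried deep in the ribosomal RNA and is mutated in some patients with Diamond-Blackfan anaemia, had levels of 14.15, 14.38, 14.36 and 14.25 in the pools labelled ICM and 15.03, 15.05, 15.01 and 15.07 in those labelled TE. The groups did not overlap. The log2 fold change of RPL15 was -0.76 (SE 0.05, adjusted p = 0.00353), and its raw signal reached 36111, in the range where the mean pixel falls behind the median pixel.

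RPL13 had the smallest p of all members. Its levels were 13.91, 14.16, 13.82 and 13.99 in the pools labelled ICM and 14.56, 14.88, 14.52 and 14.58 in those labelled TE. Pair 2 was the highest in both groups, so the 4 differences were closer to each other (-0.65, -0.72, -0.70 and -0.59) than the levels were. The log2 fold change was -0.66 (SE 0.03, adjusted p = 0.00205). Dimmer probes of RPL13 had -0.77 (SE 0.12, adjusted p = 0.0274) and -0.53 (SE 0.11, adjusted p = 0.04998), and neither was called at 0.01. The mean of all RPL13 probes had -0.66 (adjusted p = 0.0124), which was not called either.

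**Figure D2:**
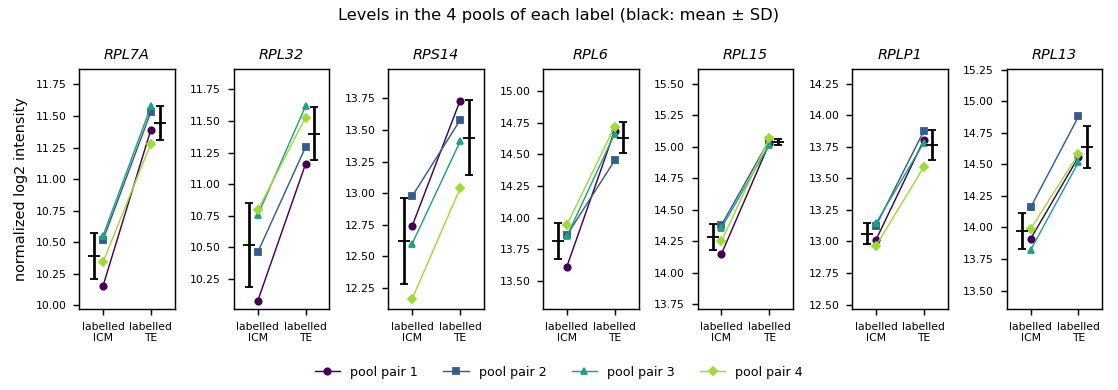
Normalized log2 intensity (y axis, 1 panel per gene with a range of its own) of the 7 ribosomal protein genes called lower, in the 4 pools labelled ICM and the 4 labelled TE (x axis). Lines join the pools of a pair and black bars give mean ± SD; in each panel all 4 pools labelled ICM lie below all 4 labelled TE, with a mean difference of -1.05 in RPL7A and of -0.66 in RPL13.

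The stalk of the large subunit, which recruits the translation factors, is built from RPLP0 and from copies of RPLP1 and RPLP2. RPLP1 fell, with levels of 13.01, 13.12, 13.15 and 12.97 in the pools labelled ICM, against 13.80, 13.88, 13.78 and 13.59 in those labelled TE, and a log2 fold change averaging -0.70 (SE 0.04, adjusted p = 0.00282). RPLP2 had a mean difference of similar size, -0.76, with a wider spread (SE 0.12, adjusted p = 0.0271). Its pools labelled ICM had 12.71, 12.68, 12.72 and 12.44, and those labelled TE had 13.92, 13.35, 13.31 and 13.02. The groups did not overlap, but the TE-labelled pool of pair 1 was the highest of all, and that pair differed by -1.21. RPLP0 had levels of 14.85, 14.99, 15.08 and 15.03 in the pools labelled ICM and 15.23, 15.07, 15.13 and 15.10 in those labelled TE on its brightest probe. These overlapped, at a log2 fold change averaging -0.15 (SE 0.07, adjusted p = 0.30), and other probes of the gene gave larger differences, described further on.

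Further large subunit genes were not called at 0.01, and of these RPL18 and RPL24 came closest to the limit. RPL8, which lies next to the site where the peptide bond is formed, had the second lowest value of the members, -1.02, but a large error (SE 0.18, adjusted p = 0.0328). Its pools labelled ICM had 12.36, 13.38, 13.47 and 13.12, and its pools labelled TE had 14.03, 14.27, 14.21 and 13.91. The ICM-labelled pool of pair 1 was the lowest of its label, apart from the other 3, and without that pair the log2 fold change was -0.81 (adjusted p = 0.00654). RPL18 had -0.68 (SE 0.07, adjusted p = 0.0108) and RPL24, part of a bridge between the subunits, had -0.71 (SE 0.08, adjusted p = 0.0125), with no overlap of levels in either. RPL5 and RPL11, chosen after their values were seen because they bind MDM2 when ribosome assembly is disturbed, had -0.11 (adjusted p = 0.434) and -0.51 (adjusted p = 0.0523).

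Among the small subunit genes, 1 of 25 was called lower and the median log2 fold change was -0.33. The called gene was RPS14, whose loss of 1 copy underlies the anaemia of the 5q deletion syndrome in humans. Its levels were 12.74, 12.98, 12.60 and 12.17 in the pools labelled ICM and 13.73, 13.58, 13.41 and 13.04 in those labelled TE. The gap between the groups was narrow, 12.98 against 13.04, because both labels varied together over the pairs, and all 4 pair differences were -0.60 or lower. The log2 fold change was -0.82 (SE 0.07, adjusted p = 0.00598). RPS15A followed with -0.64 (SE 0.07, adjusted p = 0.0102), with levels of 11.78, 11.92, 12.12 and 12.18 in the pools labelled ICM and 12.46, 12.74, 12.72 and 12.62 in those labelled TE. Its groups did not overlap. At an adjusted p of 0.05, 8 of the 25 passed, and these included RPS19, the gene most often mutated in Diamond-Blackfan anaemia, at -0.85 (SE 0.12, adjusted p = 0.0197).

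FAU encodes the small subunit protein RPS30 fused to a ubiquitin-like protein. It was read by a dim probe, with levels of 8.45, 8.65, 8.85 and 8.58 in the pools labelled ICM and 9.63, 9.29, 9.28 and 9.22 in those labelled TE, and a log2 fold change averaging -0.72 (SE 0.13, adjusted p = 0.0373). The groups did not overlap, and pair 1 was the lowest with ICM and the highest with TE. RPSA, the ribosomal protein SA that is also known as laminin receptor, had levels of 14.74, 15.08, 14.92 and 14.83 in the pools labelled ICM and 15.27, 15.06, 15.10 and 15.04 in those labelled TE. These overlapped, at -0.22 (SE 0.09, adjusted p = 0.26).

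The 3 members of highest log2 fold change were all of the small subunit and lay near 0. RPS6, the substrate of the S6 kinases, had 15.07, 15.10, 15.06 and 15.16 in the pools labelled ICM and 15.19, 15.12, 15.06 and 15.13 in those labelled TE, a log2 fold change averaging -0.02 (SE 0.03, adjusted p = 0.752). RPS3, which lies at the entry of the mRNA channel, had -0.01 (SE 0.04, adjusted p = 0.91). RPS4Y1, a symbol that in humans names a Y-linked copy of RPS4 and was kept as the array annotation gives it, had 0.02 (SE 0.03, adjusted p = 0.821). The levels overlapped in all 3, and their raw signals were 31566 or more on every channel.

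The size of the difference moved with the brightness of the probe. The mean pixel value of a spot, on which these values rest, never exceeded 42379 although the median pixel of some spots was 60000 or more. Where the median pixel was between 5000 and 40000, the mean pixel was 0.845 to 0.861 times the median pixel, and from a median pixel of 60000 upward it was 0.624 times. A limit of 30000 raw units, chosen after the values were seen, divided the members. The 27 members under it on all 16 channels were all negative, with a median log2 fold change averaging -0.71, a ratio of 0.612. Of these, 5 were called lower, 21 passed 0.05, and 24 had levels that did not overlap, all but RPS9, RPS10 and RPS26. The 37 members at or over the limit on some channel had a median of -0.18, with 36 negative and 2 called lower (RPL13 and RPL15). The 10 members with a median pixel of 65000 or more on 1 or 2 channels had a median of -0.09 and 0 calls. Over the 64 members, mean intensity and log2 fold change correlated with Pearson's r = 0.591 and Spearman's rho = 0.81, and over the 27 dimmer members with -0.275 and -0.133. With the median pixel in place of the mean pixel, 24 members were called lower, where 4.1% of all probes were. The points of the correlation share the arrays, and the part of the scanner's range in the smaller values of the bright probes was not tested.

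Other probes of the array at the same brightness were centred nearer to 0. Between a log2 intensity of 12 and 13, the 6 members had a median of -0.76 and 0 calls, against a median of 0.06 over 1004 other probes, of which 6.57% were called lower. Between 13 and 14, the 11 members had a median of -0.71 and 2 calls, against a median of 0.07 over 516 other probes, of which 7.17% were called lower. In the range from 14 to 15, the 13 members had a median of -0.66 and 3 calls, against a median of -0.15 over 336 other probes, of which 11.3% were called lower. In the brightest range, from 15 to 16, the 25 members had a median of -0.15 and 0 calls, against a median of -0.01 over 122 other probes, of which 0 were called lower.

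**Figure D3:**
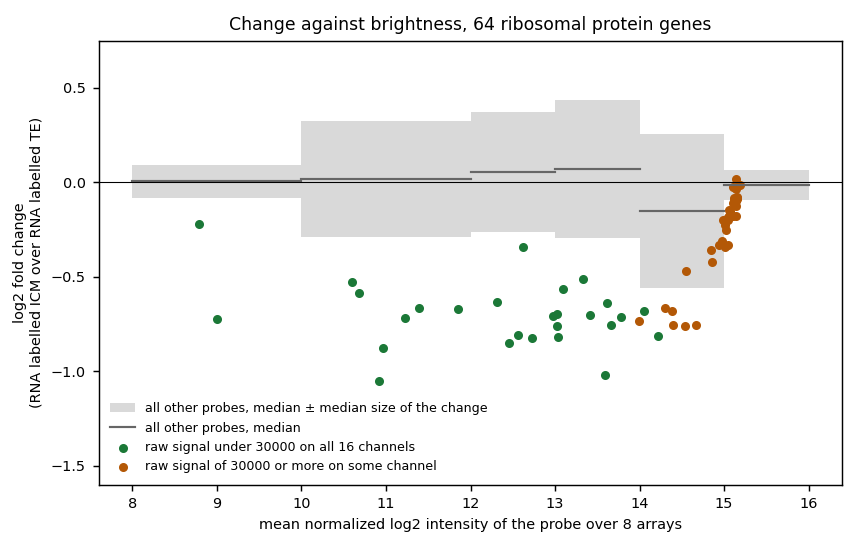
Log2 fold change (y axis, RNA labelled ICM over RNA labelled TE) against the mean normalized log2 intensity over 8 arrays (x axis) of the 64 genes, green where the raw signal stayed under 30000 on all 16 channels and orange elsewhere. Grey lines give the median of all other probes in each range of intensity and grey bands that median ± the median size of the change; the 27 green points have a median of -0.71, and the orange points climb towards 0 at the right.

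Probes of one gene also differed. In 17 of the 26 genes with several probes the dimmest probe had a lower value than the brightest, and in 9 it did not. Of the 111 probes of the 64 genes, 109 were negative, 12 were called lower and 0 higher, with a median of -0.58. RPLP0 had 12 probes, all negative, of which 8 passed 0.05. Its brightest probe had -0.15 (SE 0.07), and its dimmest probes had -0.83 (SE 0.12, adjusted p = 0.0207) and -0.82 (SE 0.15, adjusted p = 0.0353). RPSA had -0.22 (SE 0.09) on its brightest probe, -0.88 (SE 0.11, adjusted p = 0.0154) on the next and -0.63 (SE 0.11, adjusted p = 0.033) on the dimmest. RPS21 had -0.34 (SE 0.09) and -0.97 (SE 0.12, adjusted p = 0.014) on its brighter and its dimmer probe. RPS2 had -0.13, -0.37 and -0.61 from the brightest probe to the dimmest, and RPL12 had -0.09 and -0.62. In RPL11 the dimmer probe was called lower (-0.56, SE 0.04, adjusted p = 0.00493), whereas the brighter one that represents the gene was not (-0.51, SE 0.11, adjusted p = 0.0523). The probes of one gene may reach different transcripts or pseudogene copies, which was not tested.

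The 5 genes just given were chosen after their values were seen, and 9 genes did not have this order. RPL21 had -0.53 and -0.68 on probes of log2 intensity 10.60 and 10.58, and -0.07 and -0.23 on dim probes of 8.33 and 8.25. RPL36A had -0.56 on its brightest probe and -0.22 on its dimmest. RPL7 had -0.04 on a bright probe and 0.01 on a dim one, and these were near 0 at both ends. RPL15 had its largest difference, -0.76, on its brightest probe, with -0.54 (adjusted p = 0.0259) and -0.40 (adjusted p = 0.121) on the others. RPS14 and RPL18 were alike over all their probes, at -0.82 and -0.80 in RPS14 and between -0.68 and -0.74 over the 4 probes of RPL18.

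**Figure D4:**
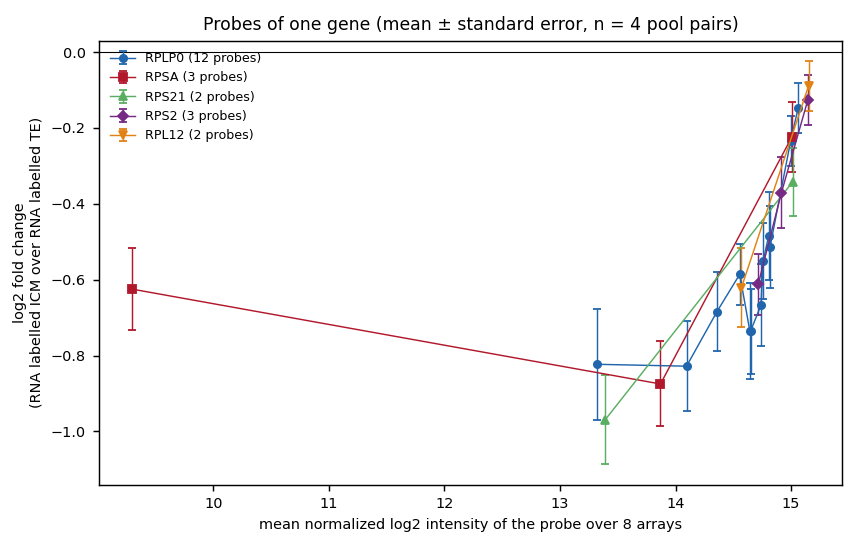
Log2 fold change (y axis, RNA labelled ICM over RNA labelled TE, mean ± SE over 4 pool pairs) against mean normalized log2 intensity (x axis) for each probe of 5 genes, with lines joining the probes of a gene. The brightest probe of each gene lies closest to 0, at -0.15 in RPLP0 and -0.22 in RPSA, and the lowest point is the dimmer RPS21 probe at -0.97.

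Among the members under 30000 raw units, the medians of the 2 subunits were equal to the second decimal. The 16 large subunit genes had a median of -0.71, with 4 called lower, and the 11 small subunit genes also had a median of -0.71, with 1 called lower. The difference between the subunits was not tested.

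The 4 pool pairs differed in the size of the shift. The median over the 64 members was -0.66 in pair 1, -0.42 in pair 2, -0.38 in pair 3 and -0.23 in pair 4 (SD 0.18), and 63, 59, 61 and 54 members were negative in these pairs. Pair 1 had the lowest value of the 4 in 56 members, whereas it was the lowest pair in 24.7% of all probes. Without pair 1 the median over the members was -0.37, with 59 of 64 negative and 9 called lower, so the sign did not rest on that pair. RPS10 was an exception to the order, with 0.01 in pair 1 and -0.47, -0.49 and -0.43 in the others.

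Both dye orientations gave lower members, to unequal degrees. On the 4 arrays with ICM in Cy5, the median over the members was -0.37, 43 of 64 were negative and 11 were called lower, where 2.06% of all probes were. With ICM in Cy3, also on 4 arrays, the median was -0.53, 64 of 64 were negative and 6 were called lower, where 0.724% of all probes were. The 27 members under 30000 raw units were negative in both orientations, with medians of -0.77 and -0.65. The 37 brighter members had a median of 0.01 with ICM in Cy5 and of -0.37 with ICM in Cy3. By the numbering of the deposited scanner output, the 4 arrays of an orientation share a slide, so dye and slide cannot be told apart, and the mean over both orientations is the value reported.

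A test of the difference between the orientations called 4 members at an adjusted p of 0.01, where 3.47% of all probes were called, and 30 at 0.05, where 20.9% were. RPL35, which lies near the exit of the peptide tunnel, had -1.28, -0.92, -0.81 and -0.86 in pairs 1 to 4 with ICM in Cy5, and -0.37, 0.05, -0.12 and -0.35 with ICM in Cy3. The 2 sets did not overlap, and the difference was -0.77 (SE 0.08, adjusted p = 0.00549). RPL28, a protein that budding yeast lacks, had -1.50, -0.90, -1.06 and -0.83 with ICM in Cy5 and -0.89, 0.03, -0.45 and -0.27 with ICM in Cy3, a difference of -0.67 (SE 0.07, adjusted p = 0.00507). RPS14 differed by -0.41 (SE 0.04, adjusted p = 0.00431) and was negative on 8 of 8 arrays. RPL23 went the other way, with -0.15, -0.03, -0.03 and -0.05 with ICM in Cy5 and -0.98, -0.61, -0.63 and -0.39 with ICM in Cy3, a difference of 0.59 (SE 0.08, adjusted p = 0.00897). In the mean over both orientations, RPL35 had -0.58 (SE 0.07, adjusted p = 0.0151), RPL28 -0.73 (SE 0.14, adjusted p = 0.0396) and RPL23 -0.36 (SE 0.06, adjusted p = 0.033).

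**Figure D5:**
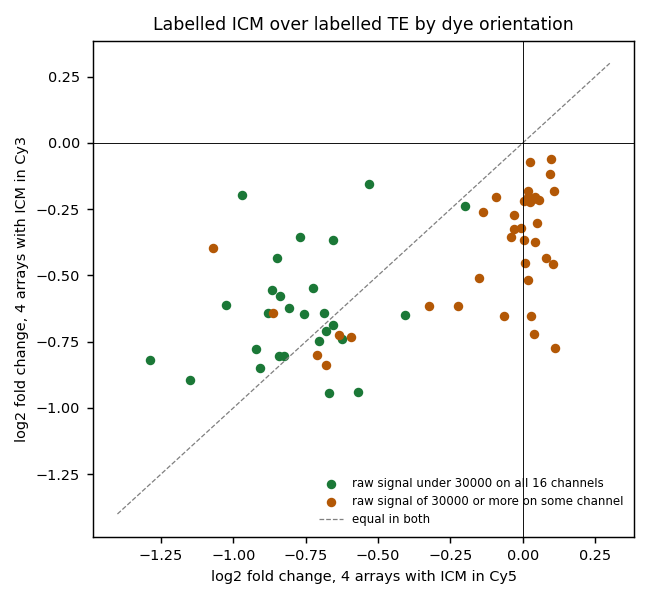
Log2 fold change (RNA labelled ICM over RNA labelled TE) of the 64 genes in the 4 arrays that carry ICM in Cy5 (x axis) and the 4 that carry it in Cy3 (y axis), green where the raw signal stayed under 30000 on all 16 channels and orange elsewhere; the dashed line marks equal values. All points lie below 0 on the y axis, and 21 points, all orange, lie right of 0 on the x axis.

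Genes around the ribosome were described by list, from counts and medians alone. Of the 6 measured paralogs of cytosolic ribosomal proteins, 3 were lower and 0 higher, with a median of -0.65. Over all probes, 1.35% were lower and 1.92% higher. The paralogs called lower were RPS27L (-0.75, SE 0.05, adjusted p = 0.00355), RPL22L1 (-0.61, SE 0.03, adjusted p = 0.00295) and RPL7L1 (-0.50, SE 0.04, adjusted p = 0.00703). The ribosomal proteins of the mitochondrion, which form a separate ribosome for the mRNAs of the mitochondrial genome, had a median of -0.07 over 75 genes. Of these 48 were negative, against 45.4% of all probes. At 0.01, 1 was higher and 0 lower, the 1 being MRPS27 at 0.27 (SE 0.02, adjusted p = 0.00701). At 0.05, 9 were lower and 4 higher, where 5.19% and 5.57% of all probes were. The difference between the cytosolic and the mitochondrial set was not tested.

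Of 96 measured ribosome biogenesis factors, which process ribosomal RNA and assemble the subunits in the nucleolus, 86 were negative, against 45.4% of all probes. Their median was -0.25. At 0.01, 7 were lower and 0 higher, where 1.35% and 1.92% of all probes were. At 0.05, 26 were lower and 1 higher, where 5.19% and 5.57% of all probes were. The median intensity of the list was 10.04, and between 10 and 12 on that scale 5.44% of the probes outside the ribosomal protein genes were called lower. FBL, the methyltransferase fibrillarin of the box C/D particles, had -1.02 (SE 0.10, adjusted p = 0.00809). RRP12, an export factor of the pre-ribosomes, had -0.86 (SE 0.03, adjusted p = 0.00131), and DKC1, the pseudouridine synthase dyskerin, had -0.82 (SE 0.06, adjusted p = 0.00529). EMG1, a methyltransferase of the small subunit RNA, had -0.79 (SE 0.03, adjusted p = 0.00168).

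Of 22 genes of RNA polymerase I and the transcription of ribosomal DNA, 1 was lower (POLR3A, a subunit of RNA polymerase III, -0.71, SE 0.07, adjusted p = 0.00935) and 0 were higher, with a median of -0.14. At 0.05, 6 of the 22 were lower and 1 higher. Over all probes, 1.35% were lower and 1.92% higher at 0.01, and 5.19% and 5.57% at 0.05. Of 19 other genes with TOP mRNAs or roles at the nascent chain, 1 was lower (HNRNPA1, -0.61, SE 0.05, adjusted p = 0.00696) and 0 were higher, at a median of -0.12. At 0.05, 4 of the 19 were lower and 0 higher. Of 25 genes of nutrient and growth signalling to the ribosome, 1 was lower and 0 were higher, at a median of 0.01. This list was dim, with a median log2 intensity of 8.22, where the offset of the background correction shrinks folds. Of the 25, 20 exceeded the negative controls on at least 8 of 16 channels. At 0.05, 2 of the 25 were lower and 0 higher, beside the 5.19% and 5.57% of all probes. The gene called at 0.01 was MYCN, a transcription factor of the MYC family that activates ribosome production. Its levels were 10.01 ± 0.17 in the pools labelled ICM and 11.24 ± 0.13 in those labelled TE (SD, n = 4 each). The log2 fold change of MYCN averaged -1.23 (SE 0.11, adjusted p = 0.00685).

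Markers of other cells were measured beside these lists. Of 9 hypoblast and endoderm markers, 1 was lower (COL4A1, a basement membrane collagen, -0.79, SE 0.04, adjusted p = 0.0028) and 0 were higher. At 0.05, 4 were lower and 1 higher, where 5.19% and 5.57% of all probes were. The log2 fold change was negative in 8 of the 9, with a median of -0.53. The summed linear intensity of the hypoblast and endoderm markers was 27290 to 45970 in the pools labelled ICM and 64640 to 71430 in those labelled TE. The markers of blood cells (6 genes), of cumulus and uterine epithelium (8 genes) and of muscle and connective tissue (5 genes) gave 0 calls. The blood cell markers summed to 1600 to 5984 in the pools labelled ICM and 1648 to 5325 in those labelled TE. The sums were 2020 to 2215 and 1976 to 2130 for the cumulus and uterine markers. For the muscle and connective tissue markers they were 11300 to 14340 and 9031 to 14020. Many of these probes were dim, with median log2 intensities of 8.05, 7.98 and 8.07 in the order given. In that order, 3 of 6, 4 of 8 and 4 of 5 genes exceeded the negative controls on at least 8 of 16 channels. The part of any of these cells, or of the cell mixture marked by the trophoblast and epiblast genes, in the ribosomal protein values was not tested.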

How the data were processed

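The authors extracted the features of the scanned slides with Array-Pro and deposited the uncorrected spot intensity and background intensity of each array and channel. A second deposited table holds log2 ratios that the authors had corrected by background subtraction, loess and quantile normalization, according to the methods. Its scale, centring and direction are not stated. Its columns correlated with log2 Cy5 over Cy3 of the scanner values (r from 0.576 to 0.868 across probes) and had medians from -0.0257 to 0.00451, and it was used only as an alternative.

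Mean pixel intensities of 45220 spots per array (43794 probes, 1426 controls) were corrected by normexp with an offset of 50 and normalized by loess within and Aquantile between arrays in limma 3.58.1 (R 4.3.3). Normexp replaced the subtraction named in the methods, which leaves spots without a log. Control spots and spots the software ignored (9 to 47 per array) had weight 0 in loess, and the ignored spots were left out. Ratios were turned to RNA labelled ICM over RNA labelled TE, averaged over the 2 arrays of a pool pair and tested against 0 with lmFit and eBayes (n = 4). P-values were adjusted by Benjamini-Hochberg over all 43794 probes, and calls were made at 0.01. The offset shrinks folds of dim probes. The number of arrays limits the precision.

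Symbols came from the platform annotation (21790 probes with 1 symbol, 22004 with none). A spot exceeded the negative controls when its signal was more than 2 SD over the mean of the 153 negative controls. The members and lists were chosen with earlier results of these data known. Named members were RPSA, RPLP0, RPLP1, RPLP2, FAU, RPS27A, RPS6 and RPL22 (RPS27A and RPL22 are not analysed here), the 10 of smallest p, the 3 of highest and of lowest log2 fold change, and up to 5 past 0.01 for the dye difference. From each list, named genes were taken from up to 4 of smallest p in each direction among those called. Other members given by name were chosen after their values were seen.

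The 2 arrays of a replicate number were taken as the same pool pair, by the number in the labels. Their deviations from the mean of their orientation correlated with r from 0.553 to 0.839 across probes, against -0.548 to 0.158 between numbers. Deviations from a shared mean offset each other by construction, which pushes the values between numbers to the negative side. Log ratios of different arrays correlated with r from 0.499 to 0.822. The steps were tested on simulated arrays with 200 changed probes. The simulated signal had no upper limit, so the steps were not tested for the loss of signal in bright spots. The alternatives covered background correction, normalization, the deposited ratio table, dye orientation, the replicate block, left-out pool pairs, dim probes, thresholds and the choice of probe. Added after the data were seen were the median pixel, leaving ignored spots out before background correction, and the brightest probe under 30000 raw units. Genome coordinates and sequences of the probes are not used here.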

Additional observations from a re-analysis of the deposited data

Results flagged for a closer look

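In 4 of the members named by the rule, a pool pair had a log2 fold change far from those of the others. Chance gives such a gap in about 1 of 20 groups of this size if values are normally distributed. RPLP0 had -0.38 in pool pair 1, against -0.09, -0.05 and -0.07 in the others. RPLP2 had -1.21 in pair 1, against -0.66, -0.60 and -0.58. RPL8 had -1.67 in pair 1, against -0.89, -0.74 and -0.79. RPL18 had -0.42 in pair 2, against -0.74, -0.78 and -0.79. Over all 64 members, 10 (15.6%) had such a pair, which was pair 1 in 9 of them, against 3322 (7.59%) of all 43794 probes. RPS10, RPS26 and RPL12, which the rule did not name, were among the 10. In RPS10, pair 1 was the highest, at 0.01 against -0.47, -0.49 and -0.43, whereas in RPS26 and RPL12 it was the lowest.

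Another 4 genes differed between the dye orientations by the test of that difference, given as ICM in Cy5 minus ICM in Cy3. The values were -0.41 for RPS14, -0.67 for RPL28, -0.77 for RPL35 and 0.59 for RPL23. RPS14 and RPL23 were negative on 8 of 8 arrays, and RPL28 and RPL35 on 7 of 8.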

How the results depend on the processing

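No alternative called a member higher, and the median over the members was negative under all of them. The 7 members called lower became 0 with median centring in place of loess (smallest adjusted p 0.0341 among members), 28 with the deposited ratio table, 11 with ICM in Cy5 only, 13 among probes above the negative controls, 24 with the median pixel (where 4.1% of all probes were lower), 29 at an adjusted p of 0.05 and 1 with a 2-fold limit. With the replicate block it was 30, and with the replicate block and a dye term 32. Leaving out a pool pair gave 0 to 9. The median of -0.44 moved to -0.71 with the brightest probe under 30000 raw units, over 38 genes.

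Over all probes, the 840 higher and 593 lower calls became 0 and 1 with median centring, 2038 and 1991 with the ratio table, 2757 and 2563 with the replicate block, 2431 and 2100 with the block and a dye term, 1283 and 1072 above the negative controls, 1877 and 1794 with the median pixel, 1289 and 1108 with ignored spots left out first, 2440 and 2274 at 0.05 and 304 and 154 with a 2-fold limit. Lower calls became 913 with plain subtraction, 904 with ICM in Cy5 and 317 with ICM in Cy3. Leaving out a pool pair gave 0 to 490 higher and 0 to 338 lower calls, and 0 of either without pair 2, 3 or 4, where 8351, 8731 and 9320 probes had an unadjusted p of 0.05 or less. The cause was not tested.

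Among the members named by the rule, signs turned in 4. RPS6 (-0.0245) had 0.027 with subtraction, 0.0357 with median centring, 0.00276 with the ratio table, 0.0237 with ICM in Cy5, 0.00816 with ignored spots left out first, and -0.0441 to 0.00574 when a pool pair was left out. RPS3 (-0.0114) had 0.0414, 0.0486, 0.0256, 0.0948 and 0.0221 under the same settings, 0.00623 with the median pixel, and -0.0334 to 0.0301 when a pool pair was left out. RPSA (-0.224) had 0.0072 with ICM in Cy5. RPS4Y1 (0.0178) had -0.00526 with members left out of loess, -0.0625 with ICM in Cy3, -0.0138 with the median pixel, and -0.00338 to 0.0472 when a pool pair was left out. The 37 brighter members reached 30000 raw units on some channel. In 10 of them the median pixel also came to the top of its range on some channel. FAU and RPS26 were read by dim spots, of mean log2 intensity 8.99 and 8.79. The part of brightness in the values of these members was not tested.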
